A study of Rattus norvegicus and Mus musculus with 22 samples.

Results

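The acinar digestive enzyme program is a list of 34 genes of the exocrine pancreas, out of 29047 gene symbols in the 6 expression tables of the series. Members were matched by gene symbol without regard to case. No expression value entered the matching, but the list was chosen with earlier results of these data known. The AR42J table listed 33 members and lacked Reg1. Both islet tables and the hepatocyte table listed all 34, the INS-1 inhibitor table listed 33, and the other INS-1 table listed 32. RNA was sequenced from cultured islets and hepatocytes of wild-type black6 mice, islets of CRTC2 knockout mice, rat INS-1 insulinoma cells, and AR42J cells, a rat pancreatic tumour line with acinar features. AR42J cells carried either GFP or NeuroD1, and 1 library was made from each without treatment and after 10 µM forskolin for 2 h. INS-1 cells had 2 control and 2 forskolin libraries in a replicated table, and a table with 1 library each of control cells, cells with forskolin, and cells with forskolin and either 1 µM JQ1, a bromodomain inhibitor, or 10 µM A-485, an inhibitor of the acetyltransferases CBP and p300, for 4 h. Hepatocytes had 2 control and 2 forskolin libraries. Wild-type islets had 2 control and 2 forskolin libraries, CRTC2 knockout islets had 1 of each, and forskolin dose and time were the same throughout. The knockout is described as whole body, and the labels do not say how NeuroD1 was delivered, whether the AR42J lines were clones, or how many mice gave each islet preparation.

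Acinar cells of the pancreas make digestive enzymes as inactive precursors, fold them in a large endoplasmic reticulum, store them in zymogen granules and release them when hormones such as cholecystokinin act on surface receptors. A complex of PTF1A, an E-protein and RBPJL binds near many of the enzyme genes, and BHLHA15 and NR5A2 help to maintain the secretory cell. NeuroD1 is a transcription factor of the endocrine pancreas. Forskolin raises cAMP and so activates CREB and its coactivator CRTC2. Islet preparations usually carry some acinar tissue, so acinar RNA is also used as a measure of their purity.

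AR42J cells expressed most of the program at high level. Of the 33 listed members, 26 reached 1 FPKM (fragments per kilobase of transcript, scaled to the reads of the library) in at least 1 of the 4 libraries, 19 reached 100 FPKM and 9 reached 1000 FPKM. Ctrb1, the chymotrypsinogen gene, was the highest at 20225 FPKM in the untreated GFP library. Cel, the bile salt-dependent lipase, followed at 8978 FPKM, and Cpa1, a carboxypeptidase, at 8003 FPKM. The summed level of the members was 55875 FPKM in the untreated GFP library, which was 8.83% of the FPKM of all genes. Pla2g1b, Reg3a, Reg3g, Dmbt1 and Cuzd1 were listed at 0 in all 4 AR42J libraries, and Cpb1 and Pdia2 stayed under 1 FPKM. The line thus held RNA of proteases, lipases, granule proteins and acinar transcription factors, with part of the list at or near 0.

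Prss2, a trypsinogen gene, was nearly silent in AR42J cells, at 2.96 FPKM in the untreated GFP library and 0 in the others. Prss1, a trypsinogen gene outside the list, stood at 970 FPKM in the same GFP library. Trypsinogen genes are near-identical copies, so how the authors' counting split their reads is uncertain, as it is for the elastases Cela3a and Cela3b, for the Reg genes and for the amylases.

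The upstream sequences of 25 members were found in the RefSeq promoter table of the rat assembly GRCr8, and the 250 bases before each gene's annotated start were searched on both strands. CACCTG, a form of the E-box CANNTG, was present in 12 of 25 member promoters (48%) and in 15.6% of the 27457 promoters of the table. TGGGAA, the core letters read by RBPJ-type factors, was present in 14 of 25 (56%) and in 21.6% of all. The general E-box CANNTG was in 80% of member promoters and 65.2% of all, and it includes CACCTG and the forms CAGCTG and CAGATG, which were in 16% each against 11.9% and 13.7% of all. The NR5A-type letters AAGGTCA were in 8% against 3.77%. The cAMP response element TGACGTCA was in 0 of the member promoters against 1.70% of all, and its core TGACG, which lies within it, was in 4% against 19%. These are matches of letters in a window, and no binding was measured. The GC content of the member windows ran from 32 to 69.6%, and the shares were not adjusted for base composition. This bears on the cAMP element patterns, which hold the letters CG.

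In 4 member promoters CACCTG and TGGGAA lay within 20 bases of each other, namely those of Cel, Ctrb1, Ctrl and Rbpjl. This was 16% of the member promoters against 0.666% of all, and the pairing was searched after the single counts were known. The 4 are printed because they hold this pair, and the promoter of Ptf1a is printed because its RNA was higher with forskolin. Each is given 5′ to 3′ on the strand of its gene, with CACCTG and TGGGAA in capitals, on either strand. In GRCr8 they lie at chr19:56566979-56567228 (minus strand, Ctrb1), chr19:50738980-50739229 (minus strand, Ctrl), chr3:32289020-32289269 (minus strand, Cel), chr3:173553248-173553497 (plus strand, Rbpjl) and chr17:86959371-86959620 (plus strand, Ptf1a).
Ctrb1: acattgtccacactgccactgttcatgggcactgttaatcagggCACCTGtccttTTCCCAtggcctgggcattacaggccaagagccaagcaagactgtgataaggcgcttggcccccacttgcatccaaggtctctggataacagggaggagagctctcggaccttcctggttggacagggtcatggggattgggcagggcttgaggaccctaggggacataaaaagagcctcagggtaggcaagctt
Ctrl: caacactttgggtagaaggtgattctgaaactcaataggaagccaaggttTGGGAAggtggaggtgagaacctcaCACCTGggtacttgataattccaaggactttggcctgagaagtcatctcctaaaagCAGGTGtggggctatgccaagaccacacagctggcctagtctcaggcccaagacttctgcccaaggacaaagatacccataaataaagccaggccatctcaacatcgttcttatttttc
Cel: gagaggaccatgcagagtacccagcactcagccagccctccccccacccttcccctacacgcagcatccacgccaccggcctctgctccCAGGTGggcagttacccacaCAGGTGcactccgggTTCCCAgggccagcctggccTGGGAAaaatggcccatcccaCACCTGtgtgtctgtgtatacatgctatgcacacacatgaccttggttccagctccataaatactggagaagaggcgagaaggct
Rbpjl: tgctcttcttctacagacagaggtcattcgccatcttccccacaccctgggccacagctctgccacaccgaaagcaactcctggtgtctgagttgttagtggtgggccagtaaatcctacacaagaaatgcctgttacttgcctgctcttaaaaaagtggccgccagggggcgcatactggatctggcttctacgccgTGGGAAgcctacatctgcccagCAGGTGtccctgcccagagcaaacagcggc
Ptf1a: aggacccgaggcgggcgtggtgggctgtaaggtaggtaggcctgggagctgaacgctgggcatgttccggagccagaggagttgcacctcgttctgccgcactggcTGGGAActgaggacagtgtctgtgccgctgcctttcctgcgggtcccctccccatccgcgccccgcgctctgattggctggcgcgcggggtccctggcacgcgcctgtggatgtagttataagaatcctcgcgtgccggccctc
The Ctrb1 E-box begins 206 bases before the annotated start and the TGGGAA core, on the opposite strand, 195 bases before it. In Rbpjl the pair lies close to the start, with the TGGGAA core at 52 and the E-box at 30 bases before it. Cel holds 3 copies of CACCTG and 2 of TGGGAA, and Ptf1a holds TGGGAA without CACCTG.

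**Figure D1:**
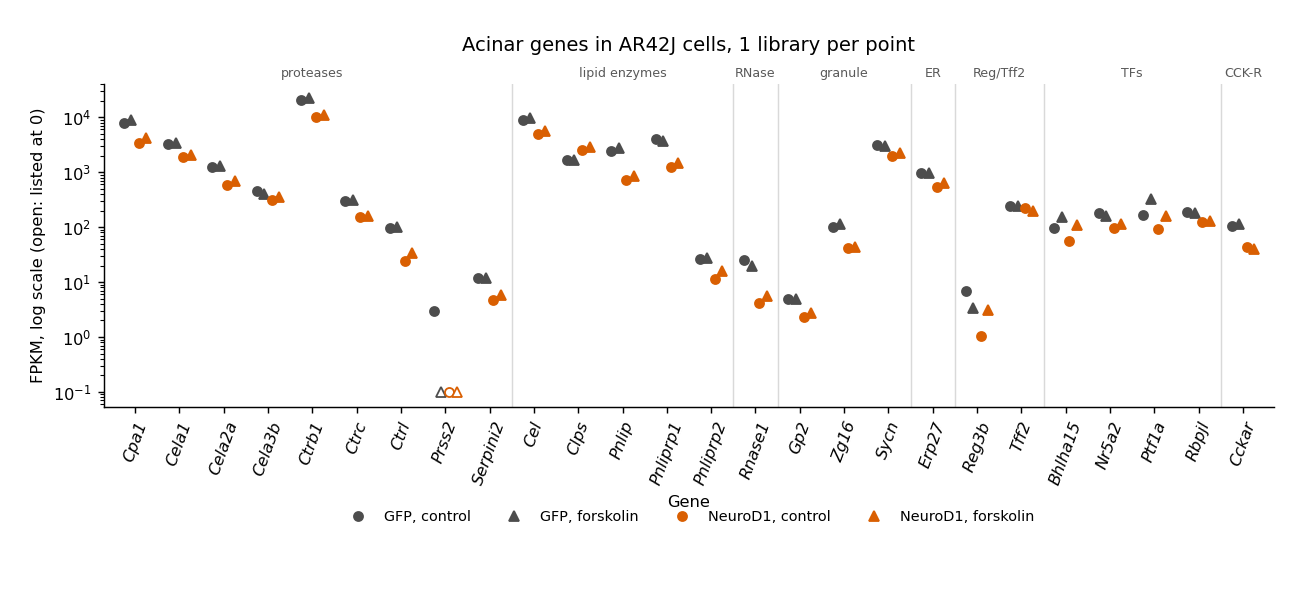
Level of the 26 members that reached 1 FPKM in AR42J cells, grouped by role, in FPKM on a log axis, with 1 point for each library and open symbols for values listed at 0. For 23 of the 26 genes both NeuroD1 libraries (orange) lie below both GFP libraries (grey), and Clps shows the opposite order. These orders were found in 33.9% and 32.7% of all genes that reached 1 FPKM.

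NeuroD1 and GFP libraries of AR42J cells were compared to ask what a neuroendocrine factor did to the acinar program. Neurod1 itself was at 3.44 and 5.67 FPKM in the GFP libraries without and with forskolin, and at 3323 and 3834 FPKM in the NeuroD1 libraries, as their labels say. The digestive enzymes were lower in the NeuroD1 libraries, by a factor near 2 for Ctrb1 and above 3 for Pnlip, whereas Clps, the colipase cofactor of pancreatic lipase, was higher. With 1 library in each group, a ratio compares libraries and has no replicate check. Ratios are on the scale of log2 of (FPKM + 1), where a change of a low gene appears smaller than it is, and only genes with at least 1 FPKM in the higher library were compared.

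Without forskolin, 12 of 26 members were lower with NeuroD1 by at least 1 on the log2 scale, and 0 were higher by that much. The same threshold was passed downward by 4.74% and upward by 6.81% of all 9954 genes. The member median was -0.97 on the log2 scale, against -0.01 for all genes, and 25 of 26 members were below 0. The 12 include Prss2, which was compared only through 2.96 FPKM in the GFP library, and 11 of the 25 members with at least 1 FPKM in both libraries were lower by that much. In the forskolin-treated pair, which shares no library with the first, 8 of 25 members were lower by at least 1 and 0 were higher, against 4.13% and 5.82% of all genes. The median there was -0.79, and 24 of 25 members were below 0. Both pairs compare cells carrying GFP with cells carrying NeuroD1. Any other difference between these lines would enter both pairs and cannot be told from NeuroD1. Both NeuroD1 libraries lay below both GFP libraries for 23 of the 26 members, an order found in 33.9% of all 10140 genes that reached 1 FPKM. The exceptions were Clps, Prss2 and Bhlha15. The opposite order was found for Clps and in 32.7% of all genes.

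Among the proteases, Ctrb1 stood at 20225 and 22029 FPKM in the GFP libraries (control, then forskolin) and at 10134 and 11091 FPKM in the NeuroD1 libraries. Cpa1 stood at 8003 and 8902 FPKM with GFP and at 3378 and 4146 FPKM with NeuroD1. Ctrl, a chymotrypsin-like protease, showed the largest gap of the proteases above 10 FPKM, with 97.5 and 99.4 FPKM against 24.3 and 33.4 FPKM. In all of these both NeuroD1 libraries lay below both GFP libraries, as in 33.9% of all genes that reached 1 FPKM. The log2 ratios without forskolin were -1.0 for Ctrb1, -1.24 for Cpa1 and -1.96 for Ctrl. The elastases were less far apart. Cela1 stood at 3271 and 3421 FPKM with GFP and 1930 and 2050 FPKM with NeuroD1, and Cela3b at 459 and 395 FPKM against 307 and 356 FPKM. The ratio of Cela3b moved from -0.58 without forskolin to -0.15 with it, so the gap was small in the treated pair. Cela2a stood at 1249 and 1319 FPKM against 593 and 682 FPKM. Ctrc, which acts on trypsinogen, was at 300 and 309 FPKM against 154 and 163 FPKM. Serpini2, a serpin of the exocrine pancreas, was low in every library, between 4.81 and 11.8 FPKM, and was also lower with NeuroD1.

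The genes for lipid digestion went in opposite directions. Pnlip, the pancreatic triglyceride lipase, stood at 2426 and 2730 FPKM with GFP and at 708 and 856 FPKM with NeuroD1, so it was 3.43 times lower without forskolin and 3.19 times lower with it. Pnliprp1, a lipase-related protein, stood at 3968 and 3715 FPKM against 1223 and 1493 FPKM. Cel stood at 8978 and 9519 FPKM against 5018 and 5513 FPKM. Clps was the reverse, at 1670 and 1697 FPKM with GFP and 2482 and 2851 FPKM with NeuroD1, with log2 ratios of 0.57 and 0.75. It was the only member above 0 in either pair. Pnliprp2 was low, at 26.8 and 27.9 FPKM against 11.2 and 16.0 FPKM. The lipase and its cofactor therefore did not move together in these libraries.

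Rnase1, the secreted pancreatic ribonuclease, had the most negative log2 ratio of the members without forskolin, at -2.35. It stood at 25.6 and 19.6 FPKM with GFP and at 4.23 and 5.69 FPKM with NeuroD1. Among the granule proteins, Zg16 stood at 100.1 and 114 FPKM against 42.1 and 42.7 FPKM. Sycn, a granule membrane protein, stood at 3088 and 2994 FPKM against 1990 and 2217 FPKM. Gp2 stayed under 5 FPKM in all 4 libraries. Erp27, an endoplasmic reticulum protein of acinar cells, stood at 981 and 979 FPKM against 537 and 625 FPKM. Tff2, a trefoil peptide, stood at 239 and 240 FPKM against 222 and 197 FPKM, with log2 ratios of -0.11 without and -0.29 with forskolin. Cckar, the cholecystokinin A receptor, stood at 106.0 and 113 FPKM against 44.0 and 40.5 FPKM, a log2 ratio of -1.25 without and -1.46 with forskolin.

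The acinar transcription factors of the list were lower too. Without forskolin their log2 ratios lay between -0.92 and -0.57, and 0 of 4 passed the threshold. Rbpjl stood at 187 and 181 FPKM with GFP and at 125 and 131 FPKM with NeuroD1. Nr5a2 stood at 183 and 160 FPKM against 96.0 and 114 FPKM. With forskolin the ratios of the 4 factors lay between -1.0 and -0.47, with a median of -0.49, and 1 passed, Ptf1a at -1.0. The 12 housekeeping genes had medians of -0.35 without and -0.39 with forskolin. A further 9 acinar transcription factors outside the list had a median of -0.19 without and -0.09 with forskolin, and in each pair 0 were lower and 1, Prox1, was higher by at least 1.

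**Figure D2:**
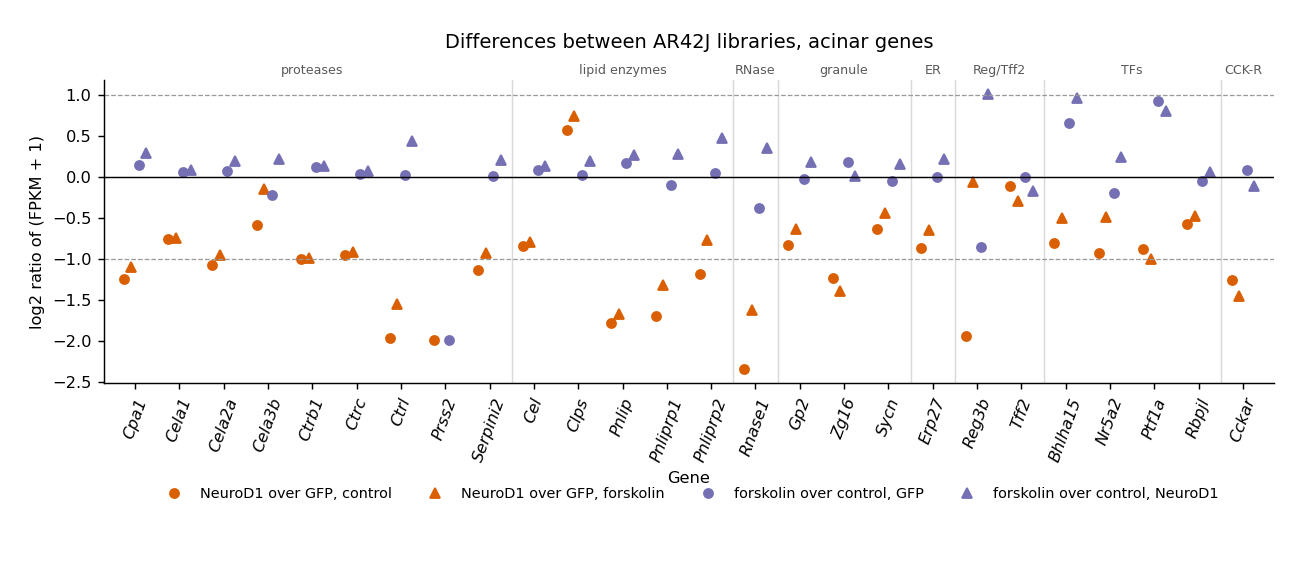
Log2 ratio of (FPKM + 1) between pairs of AR42J libraries for the same members, with NeuroD1 over GFP in orange and forskolin over control in purple. Dashed lines mark a ratio of 1 in size. The orange points lie mostly between -0.5 and -2, and the purple points lie near 0 except for Ptf1a, Bhlha15, Reg3b and Prss2.

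Acinar genes outside the list behaved in part alike. Of 6 further acinar enzyme genes compared, 3 were lower and 1 was higher by at least 1 without forskolin, with a median of -0.87. Prss1 stood at 970 and 834 FPKM with GFP and 245 and 303 FPKM with NeuroD1. Amy1a was the reverse, at 3.68 and 3.08 FPKM against 26.7 and 23.2 FPKM, while the far more abundant amylase gene Amy2a3 stood at 2755 and 2659 FPKM against 2150 and 2188 FPKM. Reads of amylase copies may have been shared between these genes. The chaperones and translocation proteins of the endoplasmic reticulum had a median of -0.47 over 14 genes without forskolin, with 1 of 14 past the threshold. That gene was Sel1l, an adaptor of protein degradation, at 345 and 293 FPKM with GFP and 140 and 150 FPKM with NeuroD1. Genes of granule exocytosis had a median of 0.28 over 10 genes without forskolin and -0.01 with it. Of these, Vamp8 passed the threshold in the untreated pair, at 24.6 FPKM with GFP and 69.7 FPKM with NeuroD1, and stood at 45.3 and 40.4 FPKM in the treated pair. The 12 housekeeping genes had a median of -0.35 without forskolin and -0.39 with it. Of the neuroendocrine genes other than the introduced Neurod1, 5 of 9 were higher by at least 1 without forskolin and 6 of 10 with it. Chgb, a granin of the same list, stood at 905 and 1044 FPKM with GFP and at 661 and 809 FPKM with NeuroD1. Pax4, an endocrine progenitor factor, was listed at 0 in both GFP libraries and stood at 30.4 and 29.3 FPKM with NeuroD1. Ins2 and Gcg were listed at 0 in all 4 libraries, and Ins1 in 3 of them, with 1.49 FPKM in the NeuroD1 library with forskolin. Crtc2 stood at 14 and 12.6 FPKM with GFP and at 16.7 and 17.6 FPKM with NeuroD1.

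Forskolin left the enzyme genes of AR42J cells close to their control levels, and the largest differences among abundant members were in 2 transcription factors. Ptf1a, which encodes a subunit of the acinar complex, went from 170 to 324 FPKM in GFP cells and from 91.8 to 161 FPKM in NeuroD1 cells, log2 ratios of 0.93 and 0.81. Bhlha15, known as Mist1, went from 97.1 to 154 FPKM and from 55.2 to 109 FPKM, log2 ratios of 0.66 and 0.96. Both genes were higher with forskolin in both backgrounds, and both stayed under the threshold of 1. In GFP cells 0 of 26 members were higher by at least 1 and 1 was lower, against 1.16% and 0.721% of all genes. The lower gene was Prss2, compared only through its 2.96 FPKM in the control library. In NeuroD1 cells 1 of 25 was higher and 0 were lower, against 1.3% and 1.25% of all genes, and the higher gene was Reg3b.

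Reg3b, a lectin of the regenerating family, was low in all 4 libraries, at 6.87 and 3.34 FPKM in GFP cells and 1.06 and 3.17 FPKM in NeuroD1 cells. The lipid-digesting enzymes lay between -0.10 and 0.17 in GFP cells and between 0.14 and 0.48 in NeuroD1 cells. The median over all compared members was 0.03 in GFP cells and 0.21 in NeuroD1 cells. The summed level went from 55875 to 59461 FPKM in GFP cells and from 29179 to 32904 FPKM in NeuroD1 cells. The cAMP and CREB targets were higher by at least 1 in 4 of 11 genes in GFP cells and in 8 of 12 in NeuroD1 cells, among them Irs2 at 34.7 and 112 FPKM in GFP cells. Nr4a1 went from 1.15 to 3.76 FPKM in GFP cells and from 3.09 to 15.8 FPKM in NeuroD1 cells, and Crem from 1.97 to 5.93 FPKM and from 5.48 to 17.2 FPKM. The receptor gene Cckbr, for gastrin and cholecystokinin, went from 36.0 to 60.5 FPKM in GFP cells and from 24.8 to 33.9 FPKM in NeuroD1 cells.

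Islets carried most of the enzyme RNAs. The members made up a lower percent of the summed values than in AR42J cells, on tables that were normalised separately. The 4 wild-type islet libraries of the replicated table held values on a regularised log2 scale, which shrinks differences of low genes and is not per length, so genes are compared only with themselves. Raised from log2, the members summed to 2874 in the control and 2762 in the forskolin library of replicate 1, and to 5855 and 9323 in those of replicate 2. These were 0.120%, 0.110%, 0.251% and 0.349% of the summed values of all genes, a rough index on this scale and not a share of RNA. Both libraries of replicate 2 lay above both libraries of replicate 1. In whole islets, fewer acinar cells and less acinar RNA per cell cannot be told apart.

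**Figure D3:**
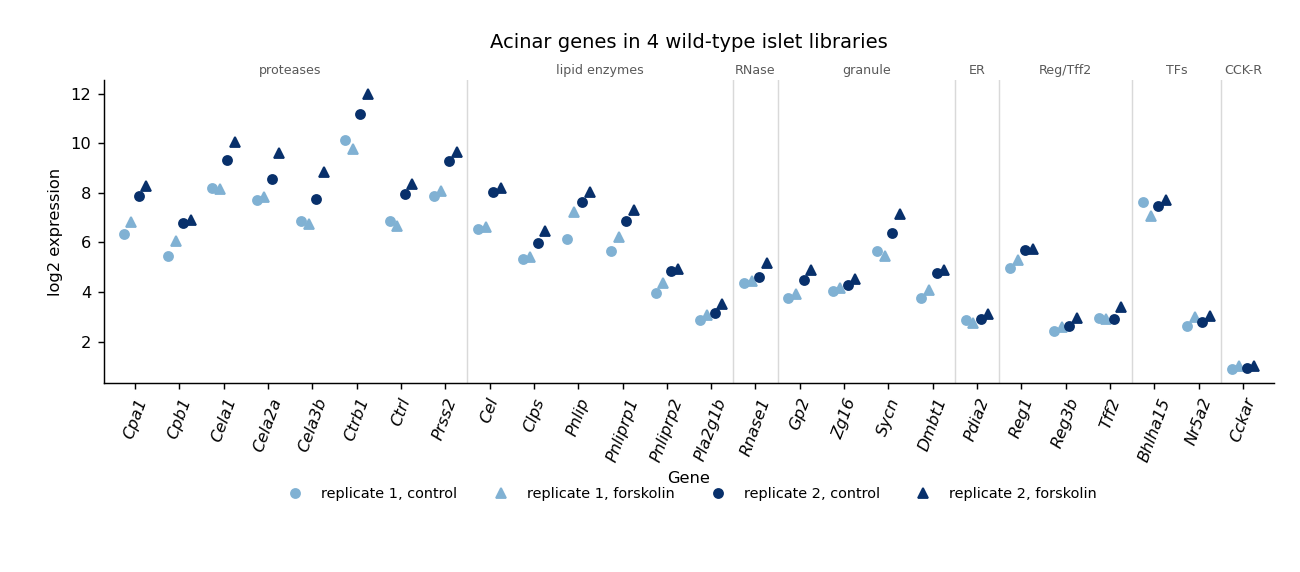
Log2 expression of the 26 members compared in wild-type islets, in 4 libraries. For the proteases and most lipid enzymes both libraries of replicate 2 (dark) lie above both libraries of replicate 1 (light), whatever the treatment. Bhlha15 differs by -0.16 log2 in controls and by 0.62 with forskolin, and Cckar by 0.04 and 0.02.

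Forskolin against control in wild-type islets gave no call among the members. In limma, with Benjamini-Hochberg adjustment over 13656 genes, 235 genes (1.72%) rose and 33 (0.242%) fell, and of the 26 members compared 0 rose and 0 fell. The member median was 0.26 on the log2 scale and 25 of 26 lay above 0 (20 of 26 after quantile normalisation), against 0.01 and 51.3% for all genes. At an unadjusted p under 0.05 there was 1 member, Nr5a2, with a log2 fold change of 0.31 ± 0.12 (SE, n = 2) and a limma adjusted p of 0.289. The smallest adjusted p of a member in the authors' deposited table was 0.680, also for Nr5a2. Ctrb1 stood at 10.1 and 11.2 log2 in controls and at 9.77 and 12 log2 with forskolin, so the groups overlapped, and its fold change was 0.24 ± 0.67 (SE, n = 2) with a limma adjusted p of 0.905. Pnlip stood at 6.13 and 7.63 log2 in controls and 7.24 and 8.03 log2 with forskolin, with a fold change of 0.75 ± 0.48 (SE, n = 2) and a limma adjusted p of 0.514. The direction rested on single libraries: 10 of 26 members lay above 0 without the control library of replicate 1, and 6 of 26 without the forskolin library of replicate 2. Without the forskolin library of replicate 1, 4 members rose (Cela2a, Cela3b, Ctrb1 and Sycn), at log2 fold changes from 1.11 to 1.53. That library also held a summed hepatocyte marker level of 6658, raised from log2, against 418 to 762 in the other 3, and the part this plays in the member values was not tested.

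The members differed by more between the replicates than between treatments at the median. Replicate 2 exceeded replicate 1 for 24 of 26 members in controls and for 26 of 26 with forskolin, with medians of 0.78 and 0.81 log2. In controls 10 members differed by at least 1, against 0.103% of all genes, and with forskolin 11 did, against 1.05%. Forskolin minus control had a median of 0.14 within replicate 1 and 0.38 within replicate 2. The gap was widest for some of the secreted enzymes. In controls it was 1.5 for Cpa1, 1.5 for Pnlip, 1.47 for Cel and 1.41 for Prss2, and the 8 protease genes compared had a median gap of 1.11 in controls and 1.72 with forskolin. Not all secreted enzymes had a wide gap. In controls it was 0.26 for Pla2g1b and 0.27 for Rnase1, and with forskolin 0.43 and 0.72. For the granule protein genes Dmbt1 and Gp2 it was 1.00 and 0.75 in controls and 0.77 and 1.00 with forskolin. Of the transcription factors 2 were compared. Bhlha15 had a gap of -0.16 in controls and 0.62 with forskolin, and Nr5a2 of 0.20 and 0.06. Pdia2, a protein disulphide isomerase, differed by 0.06 and 0.35, and Cckar by 0.04 and 0.02, with Cckar near the floor of the scale at 0.88 to 1.03 log2. Ptf1a, Reg3a, Reg3g and Erp27 lay below 0 log2 in all 4 libraries and Serpini2 at 0, while most enzyme genes lay above 4 log2.

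Some other acinar enzyme genes moved with the members between replicates. Klk1 stood at 4.98 and 4.82 log2 in replicate 1 and at 6.15 and 6.45 log2 in replicate 2, and Try5, a trypsinogen, at 6.91 and 7.04 log2 against 8.21 and 8.76 log2. Amy1 did not, at 3.47 and 4.03 log2 against 3.31 and 3.27 log2. Prss3, at 1.65 and 1.70 log2 against 1.83 and 1.79 log2, differed little. So did Spink1, at 2.38 and 2.44 log2 against 2.56 and 2.73 log2. The duct marker sum stayed between 1807 and 2413, and the endothelial sum between 709 and 941, raised from log2. Of 7 acinar enzymes outside the list, 0 were called with forskolin. Of 13 cAMP and CREB targets, 11 rose.

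CRTC2 knockout and wild-type islets were set side by side as a measure of acinar content of the preparations. Crtc2 was at 18.7 and 13.9 FPKM in the wild-type columns (control, then forskolin) and at 7.77 and 9.58 FPKM in the libraries labelled knockout, lower but not at 0, and the deleted part of the gene is not known here. The wild-type columns of this table are not independent of the replicated table. Their forskolin minus control differences correlated at r = 0.984 with those of islet replicate 2 and at 0.518 with those of replicate 1, over 4779 genes, so they may be the same libraries. The knockout forskolin library was shallow, at an estimated 0.581 M reads against 2.17 to 5.72 M in the other 3 libraries, so that 1 read in 1 kb was worth 1.72 FPKM.

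Nearly the whole program was lower in the control library labelled knockout. Of 24 members compared, 23 were lower by at least 1 on the log2 scale and 0 were higher, against 1.94% and 4.25% of all genes, with a median of -3.06 against -0.05 for all genes. With forskolin 23 of 26 were lower and 0 higher, against 9.74% and 10.2% of all genes, with a median of -1.95. Some of these calls were of members that reached 1 FPKM in the wild-type library only, namely Gp2 and Dmbt1 in both pairs and also Reg3b, Nr5a2 and Erp27 with forskolin. With at least 1 FPKM in both libraries, 21 of 21 were lower in controls and 18 of 21 with forskolin. The summed level was 4076 FPKM in the wild-type and 358 FPKM in the knockout control, 11.4 times lower. With forskolin it was 7302 against 1941 FPKM, 3.76 times lower. The wild-type columns resembled islet replicate 2, the replicate with the higher acinar level. In the replicated table, replicate 2 summed to 2.04 times replicate 1 in controls and 3.38 times with forskolin, raised from log2. The gap is therefore measured from what may be the higher wild-type preparation. The wild-type control column had a single microRNA entry with a very high value, and its share of all genes was 0.186% with microRNA and small nucleolar RNA entries counted and 0.340% without them.

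**Figure D4:**
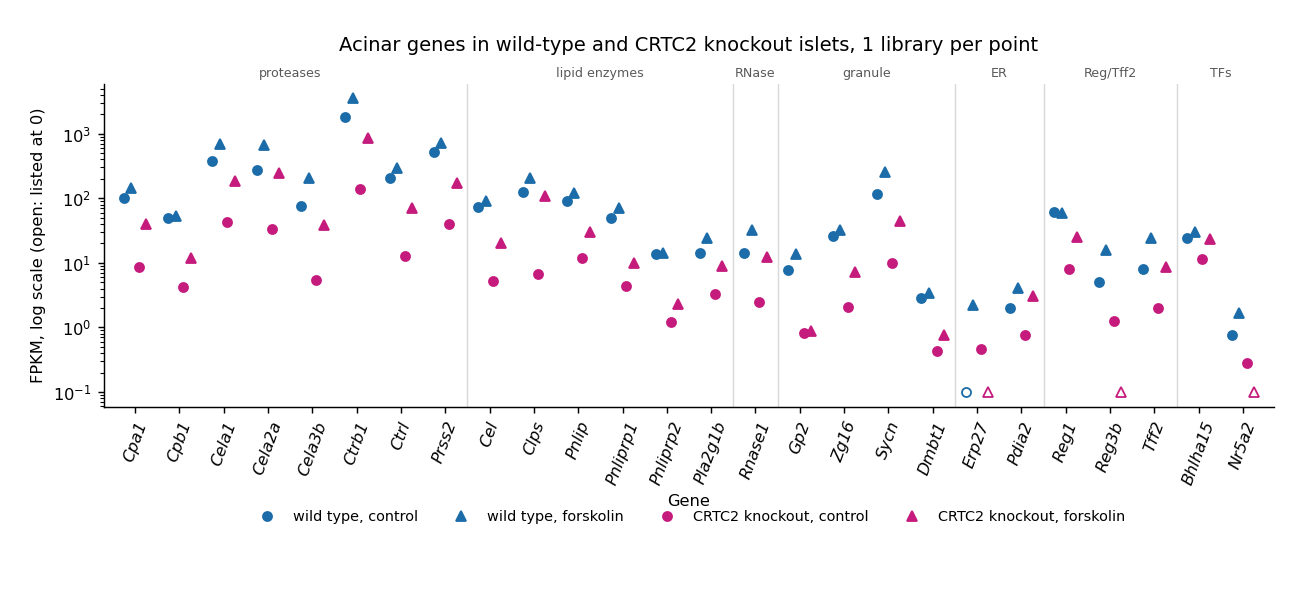
Level of the 26 members that reached 1 FPKM in the knockout table, in FPKM on a log axis, with 1 point for each library and open symbols for values listed at 0. Knockout controls (pink circles) lie lowest for nearly all enzymes, knockout forskolin libraries (pink triangles) between them and the wild-type libraries, and Bhlha15 is the closest in all 4.

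The gaps of the enzymes in controls differed in size. Ctrb1 stood at 1826 FPKM in the wild-type and 138 FPKM in the knockout control, 13.2 times lower, and Prss2 at 525 and 39.7 FPKM, also 13.2 times lower. Cpa1 stood at 99.4 and 8.54 FPKM, 11.6 times lower, and Cela1 at 374 and 42.9 FPKM, 8.71 times lower. Clps had the largest gap in controls, at 127 and 6.70 FPKM, 19 times lower. Pnlip stood at 90.2 and 11.8 FPKM, 7.67 times lower, Rnase1 at 14.3 and 2.45 FPKM, 5.82 times lower, and Pla2g1b, a secreted phospholipase, at 14.3 and 3.24 FPKM, 4.41 times lower. All 8 proteases and all 6 lipid genes compared passed the threshold in controls. With forskolin the gap of Clps was the smallest of the proteases and lipid genes, at 206 and 109 FPKM, a log2 ratio of -0.92 that misses the threshold, as Bhlha15 and Pdia2 did. Sycn stood at 118 and 10.1 FPKM and Zg16 at 25.7 and 2.10 FPKM. Bhlha15, which islet cells also express, stood at 24.6 and 11.6 FPKM, only 2.12 times lower, and Pdia2 at 2.03 and 0.760 FPKM. Reg1, the regenerating protein of the exocrine pancreas, stood at 62.1 and 8.08 FPKM.

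Lists of other cell types had medians closer to 0 in the same pair of libraries. The duct markers had a median log2 ratio of -0.25 over 7 genes, of which Krt19, at 12.2 and 1.28 FPKM, and Muc1, at 4.52 and 1.04 FPKM, were lower by at least 1. The median of the endothelial markers was -0.19 over 8, of the stellate and fibroblast markers -0.17 over 6, of the immune markers 0.52 over 6 and of the islet endocrine markers -0.21 over 16, with 0 past the threshold in these 4 lists. Krt7, a duct keratin, stood at 354 and 321 FPKM, and Gcg, the glucagon gene, at 24667 and 29438 FPKM. Ins2 stood at 807124 and 426419 FPKM and Ins1 at 67342 and 46945 FPKM. Of 8 further acinar enzyme genes, 7 were lower by at least 1, with a median of -1.91. Klk1 stood at 65.8 and 3.60 FPKM, and Try5 at 136 and 12.6 FPKM. Hepatocyte markers went the other way, with all 10 higher, a median of 3.01 and a summed level of 67.9 against 625 FPKM. With forskolin that sum was 75.5 against 2962 FPKM. Their part in the member values was not tested, and the preparation, the depth and the genotype cannot be told apart here.

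Forskolin and control libraries differed by more in knockout than in wild-type islets of this table. In knockout islets 19 of 22 members were higher by at least 1 and 1 was lower, against 12.5% and 11.9% of all genes, with a median of 1.71. With at least 1 FPKM in both libraries these were 18 and 0 of 20. The summed level went from 358 to 1941 FPKM, a 5.42-fold difference. In the wild-type columns 7 of 26 were higher and 0 lower, against 9.85% and 7.07% of all genes, with a median of 0.64, and the sum went from 4076 to 7302 FPKM, 1.79-fold. Abundant genes (at least 10 FPKM in both libraries) had a median of 0.19 in knockout and 0.12 in wild-type islets. With that median set to 0, the counts were 18 and 5. Whether the responses differ was not tested, since each is 1 library against 1. In the knockout pair all 10 hepatocyte markers were also higher by at least 1, with a median of 2.20 and sums of 625 and 2962 FPKM. Medians were 0.91 for islet endocrine markers, 0.82 for housekeeping genes and 0.42 for stellate and fibroblast markers. They were 0.31 for duct, 0.28 for immune and 0.13 for endothelial markers. What part this plays in the member values was not tested.

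Clps went from 6.70 to 109 FPKM in knockout islets, the largest difference, and from 127 to 206 FPKM in wild-type islets. Cela2a went from 33.3 to 246 FPKM and from 279 to 670 FPKM, and Ctrb1 from 138 to 871 FPKM and from 1826 to 3528 FPKM. Cpb1 went from 4.24 to 12 FPKM in knockout islets and from 50.2 to 53.9 FPKM in wild-type islets. The enzymes were thus higher in the forskolin library in both genotypes by unequal amounts. Bhlha15 went from 11.6 to 23.5 FPKM and from 24.6 to 29.8 FPKM. The cAMP and CREB targets were higher by at least 1 in 12 of 13 genes in each genotype. Nr4a1 went from 3.26 to 159 FPKM in wild-type and from 7.09 to 82.5 FPKM in knockout islets, and Crem from 11.7 to 313 FPKM and from 8.87 to 153 FPKM.

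The low members of the knockout table add little. Gp2, a granule membrane glycoprotein, stood at 7.66 and 13.5 FPKM in wild-type and 0.831 and 0.874 FPKM in knockout islets. Dmbt1 stayed under 4 FPKM in every library. Ctrc and Reg3a were listed at 0 throughout, and Ptf1a, Rbpjl, Reg3g, Serpini2, Cuzd1 and Cckar never reached 1 FPKM. In AR42J cells, by contrast, Ctrc, Ptf1a, Rbpjl and Cckar were all above 40 FPKM in every library, while Cpb1 and Pla2g1b, at 50.2 and 14.3 FPKM in wild-type control islets, were listed at 0 or under 1 FPKM. The species and the tables differ, so these values are only set side by side.

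INS-1 cells and hepatocytes, which are not acinar cultures, held little of the program. In the INS-1 inhibitor table, 33 members were listed, of which 22 stood at 0 in all 4 libraries, and the members summed to between 106 and 152 FPKM, 0.0167% to 0.0214% of all genes. Pdia2 made up most of that sum, at 73.1 to 97.5 FPKM. Bhlha15, Pla2g1b, Ctrb1 and Cckar were the others above 5 FPKM. In the replicated INS-1 table, a total of 6 members could be tested with forskolin. Of 10344 genes 318 (3.07%) rose and 128 (1.24%) fell, and 0 members were called by limma, with 2 at an unadjusted p under 0.05. Cckar stood at 6.53 and 6.74 log2 in controls and at 6.02 and 6.50 log2 with forskolin, a fold change of -0.38 ± 0.17 (SE, n = 2) with a limma adjusted p of 0.271. Ctrb1 stood at 3.42 and 3.45 log2 against 3.58 and 3.62 log2, a fold change of 0.17 ± 0.07 (SE, n = 2) with a limma adjusted p of 0.261. In hepatocytes 3 members were above 0 log2, namely Nr5a2 at 7.38 to 7.65, Cela1 at 4.00 to 4.05 and Bhlha15 at 0.41 to 0.45 over 4 libraries.

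**Figure D5:**
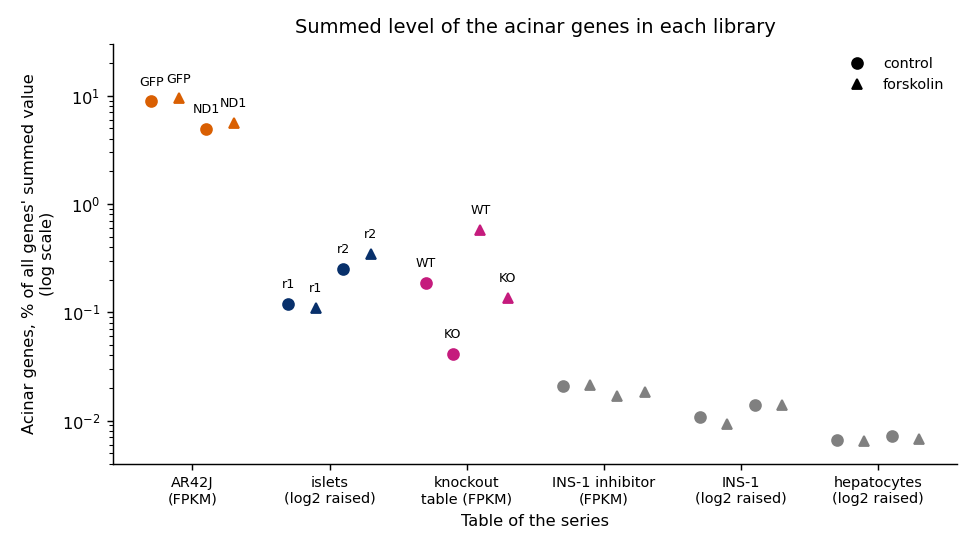
Summed level of the members as a percent of the summed value of all genes in each library, on a log axis, with circles for control and triangles for forskolin libraries (those with JQ1 or A-485 included). AR42J libraries lie between 4.96 and 9.44%, islet libraries between 0.0414 and 0.571% (small RNA entries counted), and INS-1 and hepatocyte libraries at or below 0.0214%. AR42J, knockout and INS-1 inhibitor values are FPKM and the rest are raised from log2, so the percents are not on the same scale.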

How the data were processed

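RNA libraries were made with a strand-preserving kit, per the labels' protocols. Alignment to mm10 or rn6 and the tools TopHat2 2.0.9, STAR, HOMER and DESeq2 are named in the submitters' processing notes, and the tool behind each table is not stated. The islet, INS-1 and hepatocyte tables hold the authors' regularised log2 expression, beside their own log2 fold change and both a raw and an adjusted p-value, per the file headers. The AR42J, knockout and INS-1 inhibitor tables name no unit, and their deposited values behave as FPKM, since multiplying the low ones by exon length gave steps of 1 constant size in each library. That constant gave an estimated 2.49 to 3.52 M reads in AR42J libraries, and the file headers of the islet table give 3.07 to 3.88 M. Counting error limits the lowest genes, and 1 read in 1 kb was worth 0.284 to 0.402 FPKM in AR42J libraries.

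Here the log2 columns were tested with limma 3.58.1 in R 4.3.3 over all genes with a group mean of at least 1, with a variance trend and Benjamini-Hochberg adjustment, and calls were made at an adjusted p under 0.05. The labels do not state that replicates were separate animals or cultures, so a p-value here covers the spread among the libraries at hand, which may be technical. Each FPKM pair was compared as log2 of (FPKM + 1), with a threshold of 1 in size and at least 1 FPKM in the higher library. Tables were normalised separately and never tested against each other. The limma code was tested on simulated data. Hepatocyte control and forskolin labels of replicate 2 do not match the response of the cAMP targets, so only ranges over the 4 hepatocyte libraries are given. All 34 members are accounted for. From the other lists, the rule for named genes took up to 4 genes a comparison, those with the largest difference among genes of at least 10 FPKM or with a call, and Crtc2, Neurod1, Ins1, Ins2, Gcg, Nr4a1 and Crem in all cases. Outside that rule, Amy1, Amy2a3, Cckbr, Chgb, Itpr1, Krt19, Krt7, Muc1, Orai1, Prox1, Prss1, Prss3, Sel1l, Spink1, Try5 and Vipr1 were chosen after their values were seen, as was the place where Klk1 and Vamp8 are described. Spp1 was chosen in the same way. The members and all lists were chosen with earlier results of these data known. A gene withheld from the text is not reported here.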

Additional observations from a re-analysis of the deposited data

Results flagged for a closer look

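Reg3b differed in direction between genotypes with forskolin in the knockout table. Its log2 ratio of (FPKM + 1) was 1.47 in the wild-type columns, from 5.06 to 15.8 FPKM, and -1.18 in knockout islets, from 1.27 FPKM to a value listed at 0. The difference was not tested, because each ratio compares 1 library with 1. In the knockout forskolin library 1 read in 1 kb was worth 1.72 FPKM. In the replicated islet table Reg3b stood at 2.42 and 2.62 log2 in controls and 2.57 and 2.94 log2 with forskolin.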

How the results depend on the processing

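The leading direction of the member counts in the NeuroD1 and knockout comparisons was the same in each alternative. A pseudocount or a filter cannot change the sign of a ratio, so for those alternatives this was largely fixed in advance. With other pseudocounts, no low filter, at least 1 FPKM asked of both libraries (chosen after seeing the data) or the median set to 0, the members lower with NeuroD1 numbered 8 to 13 without forskolin and 7 to 9 with it. Those lower in knockout islets numbered 19 to 24 in controls and 18 to 23 with forskolin. With forskolin, 13 to 20 members were higher in knockout and 5 to 8 in wild-type islets of that table. Counts of 1 were less stable: in GFP cells the members lower with forskolin were 2 at a pseudocount of 0.1 FPKM and 0 at 5 FPKM or with 1 FPKM asked of both libraries, and at 5 FPKM the single member higher in NeuroD1 cells and the single member lower in knockout islets fell to 0, the latter also with 1 FPKM asked of both libraries. The wild-type control share of the knockout table was 0.340% without microRNA and small nucleolar RNA entries, also chosen after seeing the data, against 0.186% with them. What lay behind these changes was not tested.

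In wild-type islets the replicate block called 667 genes higher and 120 lower, against 235 and 33, and 0 members. In INS-1 cells the block called 774 higher and 691 lower, against 318 and 128, and 1 member lower, Cckar, at a limma adjusted p of 0.0247. The replicate numbers pair samples by number only: deviations from the group means correlated at -0.05 in islets and 0.44 in INS-1 cells, over 2 pairs each. In islets the genes lower were 12 without a variance trend, 52 after quantile normalisation, 18 without a filter and 56 at a group mean of at least 5. In INS-1 cells 193 genes were higher and 32 lower without a variance trend. The cause was not tested.

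Leaving out 1 islet library gave 114 to 1879 genes higher, 7 to 961 lower and 0 to 4 members higher. The lone library of a group is then assumed to vary like the other group. Log2 fold changes ranged from -0.87 to 1.35 for Ctrb1, from -0.0025 to 1.5 for Pnlip, from -0.49 to 0.13 for Bhlha15, from -0.56 to 1.53 for Cela3b, from -0.29 to 1.45 for Cela2a and from -0.58 to 1.11 for Sycn. Ctrb1 was also at -0.14 after quantile normalisation. Leaving out 1 INS-1 library gave 197 to 366 genes higher, 36 to 147 lower and 0 to 1 member lower, with Bhlha15 from -0.0913 to 0.67 and Cckar from -0.62 to -0.14. With 2 libraries or 1 in a group, changes of the size seen between islet replicates could not be told from a response.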

Other observations

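In the INS-1 inhibitor table, 1 library each was made from control cells, from cells with 10 µM forskolin for 2 h, and from forskolin-treated cells that also had JQ1 or A-485. Cckar, the cholecystokinin A receptor, stood at 11.6 FPKM in control, 6.89 FPKM with forskolin, 0.181 FPKM with JQ1 and forskolin, and 0.635 FPKM with A-485 and forskolin. Bhlha15 stood at 13.7, 20.9, 3.45 and 8.91 FPKM in the same order. Pla2g1b stood at 14.9, 23.1, 9.64 and 16.0 FPKM, and Pdia2 at 73.1, 87.2, 97.5 and 73.7 FPKM. In the same order Ctrb1 stood at 8.17, 12.4, 8.51 and 2.97 FPKM, and Ctrl at 1.48, 0.749, 3.85 and 1.07 FPKM. Cckar, Bhlha15, Pla2g1b and Ctrb1 were thus lower with either inhibitor than with forskolin alone, and Ctrl was higher. Each value is from 1 library and was not tested. The share of all genes that were lower with an inhibitor was not counted.

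Of 9 genes of acinar receptors and calcium signalling outside the list, 1 was higher and 2 were lower with NeuroD1 by at least 1 on the log2 scale in untreated AR42J cells, and 1 and 1 in treated cells. The genes given here were chosen after their values were seen. Itpr1, a calcium release channel, stood at 9.95 and 8.67 FPKM with GFP (control, then forskolin) and at 22.1 and 17.7 FPKM with NeuroD1, log2 ratios of 1.08 and 0.95. Orai1, a calcium entry channel, stood at 21.0 and 17 FPKM against 30.8 and 39.4 FPKM, ratios of 0.53 and 1.16. Vipr1, a receptor for vasoactive intestinal peptide, stood at 9.90 and 11.7 FPKM against 4.08 and 4.01 FPKM, ratios of -1.10 and -1.34. Prox1, a transcription factor of early pancreas, stood at 5.71 and 3.53 FPKM against 23.8 and 14.9 FPKM.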
